A study of Rattus norvegicus with 20 samples.

Results

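Globular bushy cells are neurons of the ventral cochlear nucleus whose axons cross the midline and end in the calyx of Held, and 8 genes of the oligodendrocyte lineage were followed in rat samples of these cells at 3 ages. Oligodendrocytes are the glia that wrap central axons in myelin. The genes are markers of their precursors and of cells that have just begun to differentiate: Pdgfra, Cspg4, Cspg5, Olig1, Olig2, Sox10, Enpp6 and Gpr17. They were chosen by name, and every probe set that the array's annotation gives to exactly 1 gene of these 8 was used. By this rule 7 of the 8 genes were measured, with 8 probe sets, out of 14217 genes on the array with such a probe set. Olig2 had 2 probe sets and the others 1 each, and Gpr17 was not analysed here. Of the 7 genes, 6 passed the filter for testing (log2 intensity above 4 on at least 5 arrays), and Olig2 did not.

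All animals were Sprague Dawley rats that received the retrograde tracer cholera toxin B in the medial nucleus of the trapezoid body of the opposite side and were killed 24 hours later. From each animal 200 tracer-labelled cells were cut by laser microdissection from frozen sections of 12 µm and pooled, and their RNA was amplified linearly in 2 rounds, so 1 array stands for 1 animal. There were 6 animals at postnatal day 3 (P3), when the calyx has just formed, 9 at P8, when it is juvenile, and 5 at P21, when it is mature. Of the P8 animals, replicates 1 to 4 entered the comparisons and replicates 5 to 9 are given apart, because their arrays stood apart from all others. P8 without further words means replicates 1 to 4, which leaves 15 arrays in the comparisons. No group was treated differently from another except by age.

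Oligodendrocyte precursors divide and migrate under the control of platelet-derived growth factor, which they sense through the receptor Pdgfra, and they carry the proteoglycan NG2, the product of Cspg4. The factors Olig1, Olig2 and Sox10 define the lineage and stay active in later stages. Cells that leave the cycle and commit to differentiation lose Pdgfra and NG2, pass through a premyelinating stage marked by Enpp6, and then make myelin. A section through a nucleus rich in axons holds glia beside the neurons, and these bulk samples do not show which cells in the cut tissue gave a transcript. Fewer cells of a type and less RNA per cell cannot be told apart in them.

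Levels are log2(intensity + 1) of the deposited intensities, which were scaled to 1 mean per array. A change is a difference of group means on that scale with its standard error (SE), and a fold is the same difference without the logarithm. The fold of a gene that is dim at 1 age depends on the number added and is uncertain in size. A gene was called changed when its adjusted p from limma was under 0.05, adjusted by the Benjamini-Hochberg method over the 11834 genes tested. Levels are compared between ages for 1 probe set at a time and never between probe sets.

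The median intensity was 23.8 to 32.5 on the 15 arrays and 58.9 to 67.5 on those of P8 replicates 5 to 9, where the spike-in controls were also brighter, at a mean log2 of 12.9 to 13.8 against 8.53 to 9.36. The difference between 3' and 5' control probe sets of GAPDH, a sign of RNA quality, was 2.91 ± 0.27 (SD, n = 6) at P3, 3.27 ± 0.42 (SD, n = 4) at P8 and 3.99 ± 0.66 (SD, n = 5) at P21, and so moved with age. The same difference for beta-actin was 4.70 ± 0.30 (SD, n = 6), 4.29 ± 0.19 (SD, n = 4) and 4.32 ± 0.69 (SD, n = 5), and did not rise with age. Only the GAPDH difference was used as a covariate. No 2 arrays were alike enough to be 1 sample deposited again: the highest correlation between 2 arrays was 0.967, and at most 1.33% of their values were identical. Of 17 tested genes of bushy neurons 13 rose from P3 to P21 and 0 fell, led by the calcium buffer gene Pvalb (6.28 ± 0.86 SE, adjusted p = 3.54e-05) and the sodium channel subunit gene Scn4b (5.26 ± 0.24 SE, adjusted p = 1.75e-09). Over all genes tested, 22.6% were called higher and 20.5% lower in that comparison. The mean of Pvalb at P3 was 3.61, under log2 4, so the size of its rise is uncertain. The mean level of the 17 bushy neuron genes was 8.25 at P3, 9.51 at P8 and 10.40 at P21. In P8 replicates 5 to 9 it was 8.16, under that of P3, and these animals enter every result over all 20 arrays. Of the 4 markers of inhibitory neurons measured, Gad1 was at 9.42 ± 0.30 (SD, n = 6), 8.93 ± 0.51 (SD, n = 4) and 8.42 ± 0.60 (SD, n = 5) at P3, P8 and P21, and Slc32a1 at 7.33 ± 0.53 (SD, n = 6), 7.15 ± 0.64 (SD, n = 4) and 6.36 ± 0.77 (SD, n = 5). The others were dim: Slc6a5 was at or under log2 4 on every one of the 15 arrays, and Gad2 on every array at P8 and P21.

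The promoters of 3 members show which sequence lies before genes that moved in opposite directions in the comparisons below: Pdgfra and Cspg4, lower at P21, and Enpp6, higher. Each is the 250 bases before the gene's start in RefSeq, assembly GRCr8, printed 5′ to 3′ on the gene's strand: chr14:33408517-33408766 on the minus strand, chr8:66160692-66160941 on the plus strand and chr16:52026729-52026978 on the minus strand. Capitals mark matches on either strand to CANNTG, the E-box that basic helix-loop-helix factors such as the Olig proteins recognise, and to ACAAAG and ACAATG, letters recognised by SOX factors.
Pdgfra promoter: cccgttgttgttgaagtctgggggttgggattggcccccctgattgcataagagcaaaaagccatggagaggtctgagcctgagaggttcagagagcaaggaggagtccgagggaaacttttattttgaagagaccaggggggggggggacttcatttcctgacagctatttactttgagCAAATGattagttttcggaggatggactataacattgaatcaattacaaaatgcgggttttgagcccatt
Cspg4 promoter: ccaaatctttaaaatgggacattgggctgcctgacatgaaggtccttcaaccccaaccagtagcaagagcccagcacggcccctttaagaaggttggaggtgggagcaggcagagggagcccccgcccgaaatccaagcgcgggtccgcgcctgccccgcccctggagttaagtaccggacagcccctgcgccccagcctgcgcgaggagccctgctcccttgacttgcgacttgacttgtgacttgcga
Enpp6 promoter: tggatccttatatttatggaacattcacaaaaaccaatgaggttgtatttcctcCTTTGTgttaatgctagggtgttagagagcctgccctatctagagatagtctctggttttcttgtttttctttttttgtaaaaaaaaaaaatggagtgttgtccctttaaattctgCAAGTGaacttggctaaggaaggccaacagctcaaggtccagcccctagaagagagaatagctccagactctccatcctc

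The Pdgfra promoter holds 1 CANNTG and 0 SOX motifs, the Enpp6 promoter holds 1 CANNTG and 1 ACAAAG, and the Cspg4 promoter holds 0 of either. No match overlapped another. Over 33469 rat promoters of the same length, 65.5% hold a CANNTG, 16.3% an ACAAAG and 11.1% an ACAATG. The matches describe the letters of these windows and are not shown to be bound. Promoters of 4 of the 7 measured genes were matched, the fourth being that of Olig2, at chr11:43961335-43961584 on the plus strand, with 0 matches to any of the 3 motifs.

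Pdgfra, the receptor that keeps precursors dividing, showed no called change from P3 to P8, which does not show an equal level, and was lower at P21. At P3 its level was 7.80 at the lowest, 8.10 at the median and 8.51 at the highest of the 6 animals. At P8 it was 7.55, 8.58, 8.18 and 8.13, and at P21 it was 5.70, 7.62, 5.74, 6.53 and 7.61. The P21 animals split into 3 low and 2 that reached the lower edge of the P8 range, while no P21 animal reached the P3 range. The change from P3 to P8 was -0.04 ± 0.37 SE (95% interval -0.82 to 0.74, adjusted p = 0.954), and its sign turned when array medians were subtracted (0.044). From P8 to P21 Pdgfra fell by 1.47 ± 0.38 SE (adjusted p = 0.0136), although the 2 groups overlapped. The call from P8 to P21 was lost when only these 2 ages were fitted (-1.47, adjusted p = 0.0653). From P3 to P21 it fell by 1.51 ± 0.34 SE, a fold of 2.85 (adjusted p = 0.00248).

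Cspg4, which encodes the NG2 proteoglycan of precursors and also marks pericytes, was lower at each later age, and its change passed the test over the whole span only. The P3 animals lay close together, from 5.76 over a median of 5.90 to 6.00. At P8 the levels were 5.22, 4.90, 4.54 and 5.26, below every P3 animal. At P21 they were 4.50, 1.68, 2.10, 4.93 and 4.53, so that replicates 2 and 3 were far below the others and 3 of 5 lay within or just under the P8 range. The change from P3 to P8 was -0.91 ± 0.53 SE (95% interval -2.03 to 0.21, adjusted p = 0.246) although the groups did not overlap. Fitted with these 2 ages only, where the spread of P21 does not enter, the same difference had an adjusted p of 0.0059, and with a pseudocount of 16 it was -0.67 with an adjusted p of 0.0464. Over all 20 arrays it was only -0.20 (adjusted p = 0.761), and with the GAPDH covariate -0.58 (adjusted p = 0.476). The change from P8 to P21 was -1.43 ± 0.55 SE (95% interval -2.59 to -0.27, adjusted p = 0.0787). It was called without P21 replicate 4 (-1.78, adjusted p = 0.0289), with array weights (-1.82, adjusted p = 0.0443) and over all 20 arrays (-2.15, adjusted p = 0.00532). It was smaller and not called with the GAPDH covariate (-0.77, adjusted p = 0.408), with a pseudocount of 16 (-0.66, adjusted p = 0.0546) and without P21 replicate 2 (-0.96, adjusted p = 0.178). From P3 to P21 Cspg4 fell by 2.34 ± 0.49 SE, a fold of 5.08 (adjusted p = 0.00138). With the 3' minus 5' difference of GAPDH as a covariate that call was lost (-1.36, adjusted p = 0.153).

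Cspg5, the gene of neuroglycan C, a proteoglycan that precursors share with neurons, overlapped in level between P3 and P8 and was far lower at P21. Its P3 levels ran from 4.11 over a median of 5.32 to 5.96. At P8 they were 4.60, 5.46, 4.88 and 4.26, inside the P3 range. At P21 they were 1.32, 2.38, 1.77, 3.69 and 1.89, so no P21 array was above log2 4 and none reached either younger group. The change from P3 to P8 was -0.43 ± 0.42 SE (95% interval -1.31 to 0.46, adjusted p = 0.510). From P8 to P21 Cspg5 fell by 2.59 ± 0.43 SE, a fold of 6.04 (adjusted p = 0.000766). From P3 to P21 it fell by 3.02 ± 0.39 SE, a fold of 8.11 (adjusted p = 2.14e-05). Cspg5 passed the filter through its P3 and P8 arrays alone. With a pseudocount of 16 the change from P3 to P21 shrank to -1.40 and stayed called.

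Olig1, a basic helix-loop-helix factor of the whole lineage, fell in both steps. The P3 levels were 9.97 at the lowest, 10.35 at the median and 10.57 at the highest. At P8 they were 9.17, 9.21, 8.90 and 9.46, and at P21 they were 8.08, 8.89, 8.43, 8.55 and 8.02. The 3 ages did not overlap, but the lowest P8 level, 8.90, and the highest P21 level, 8.89, nearly met. Olig1 fell by 1.11 ± 0.18 SE from P3 to P8 (adjusted p = 0.00133) and by 0.79 ± 0.19 SE from P8 to P21 (adjusted p = 0.00917). Over the whole span it fell by 1.90 ± 0.17 SE, a fold of 3.73 (adjusted p = 7.71e-07). These calls were kept with each of the 15 arrays left out in turn, but the step from P8 to P21 was not kept over all 20 arrays, as given further on with P8 replicates 5 to 9.

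Olig2, the partner factor of Olig1 that is needed to form the lineage, was dim on both of its probe sets, did not pass the filter and was not tested in the fit used here. On the brighter probe set the P3 levels ran from 0.49 over a median of 2.30 to 3.60. On the same probe set the P8 levels were 3.14, 4.07, 3.79 and 3.68 and the P21 levels 1.81, 3.51, 4.36, 4.15 and 4.28. The ages overlapped, with 0 of 6 arrays above log2 4 at P3, 1 of 4 at P8 and 3 of 5 at P21. On the dimmer probe set the P3 levels ran from 2.23 over 3.08 to 3.94. The same probe set gave 2.94, 2.83, 2.93 and 3.02 at P8 and 3.85, 2.46, 1.81, 3.23 and 2.87 at P21, so that none of the 15 arrays was above log2 4. With no filter, the brighter probe set differed from P3 to P21 by 1.53 ± 0.57 SE (adjusted p = 0.0485), and with quantile normalization, after which it passed the filter, by 1.56 ± 0.54 SE (adjusted p = 0.0289). Over all 20 arrays it passed the filter too, and its change was 2.36 ± 0.58 SE from P3 to P8 (adjusted p = 0.0108) and 1.53 ± 0.66 SE from P3 to P21 (adjusted p = 0.138). All these changes rest on P3 values at or under log2 4.

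Sox10, the HMG-box factor that precursors keep into the myelinating stage and that Schwann cells also use, was higher at both P8 and P21 than at P3. Its P3 levels ran from 4.72 over a median of 5.67 to 6.14. At P8 they were 6.12, 6.26, 6.93 and 6.73, and at P21 they were 5.92, 6.78, 6.33, 6.84 and 6.15. Most P8 and P21 animals lay above the P3 range, but P3 overlapped with either later group at its upper end. Sox10 rose by 1.00 ± 0.30 SE from P3 to P8 (adjusted p = 0.0298). This call was lost in 4 of the 15 fits that leave out 1 array: without P3 replicate 1 (adjusted p = 0.0552), P3 replicate 2 (0.0616), P8 replicate 3 (0.0825) or P8 replicate 4 (0.0663). It was also lost with array weights (0.82, adjusted p = 0.0667) and with the GAPDH covariate (0.86, adjusted p = 0.0728). The change from P8 to P21 was -0.11 ± 0.31 SE (95% interval -0.76 to 0.55, adjusted p = 0.844). From P3 to P21 Sox10 rose by 0.90 ± 0.28 SE, a fold of 1.86 (adjusted p = 0.0166), a call that was lost with the GAPDH covariate (0.48, adjusted p = 0.401) and over all 20 arrays (0.90, adjusted p = 0.110).

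Enpp6, a choline phosphodiesterase of newly formed oligodendrocytes, rose most among the tested members and did so before P8. At P3 its levels were 0.68, 0.85, 1.89, 3.58, 4.14 and 4.99 in rising order, with a median of 2.74, so 4 of 6 arrays were under log2 4. At P8 they were 5.53, 6.12, 6.67 and 6.51, and at P21 they were 6.01, 5.35, 5.32, 5.93 and 6.05. Both later groups lay above every P3 animal and overlapped with each other. Enpp6 rose by 3.52 ± 0.70 SE from P3 to P8, a fold of 11.5 (adjusted p = 0.00388). The change from P8 to P21 was -0.47 ± 0.73 SE (95% interval -2.03 to 1.08, adjusted p = 0.692). From P3 to P21 it rose by 3.05 ± 0.66 SE, a fold of 8.25 (adjusted p = 0.00165). Enpp6 passed the filter mainly through its P8 and P21 arrays, and its dim P3 values make the size depend on the pseudocount: with 16 in place of 1 the rise to P8 was 1.87 and that to P21 was 1.48, both still called.

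**Figure D1:**
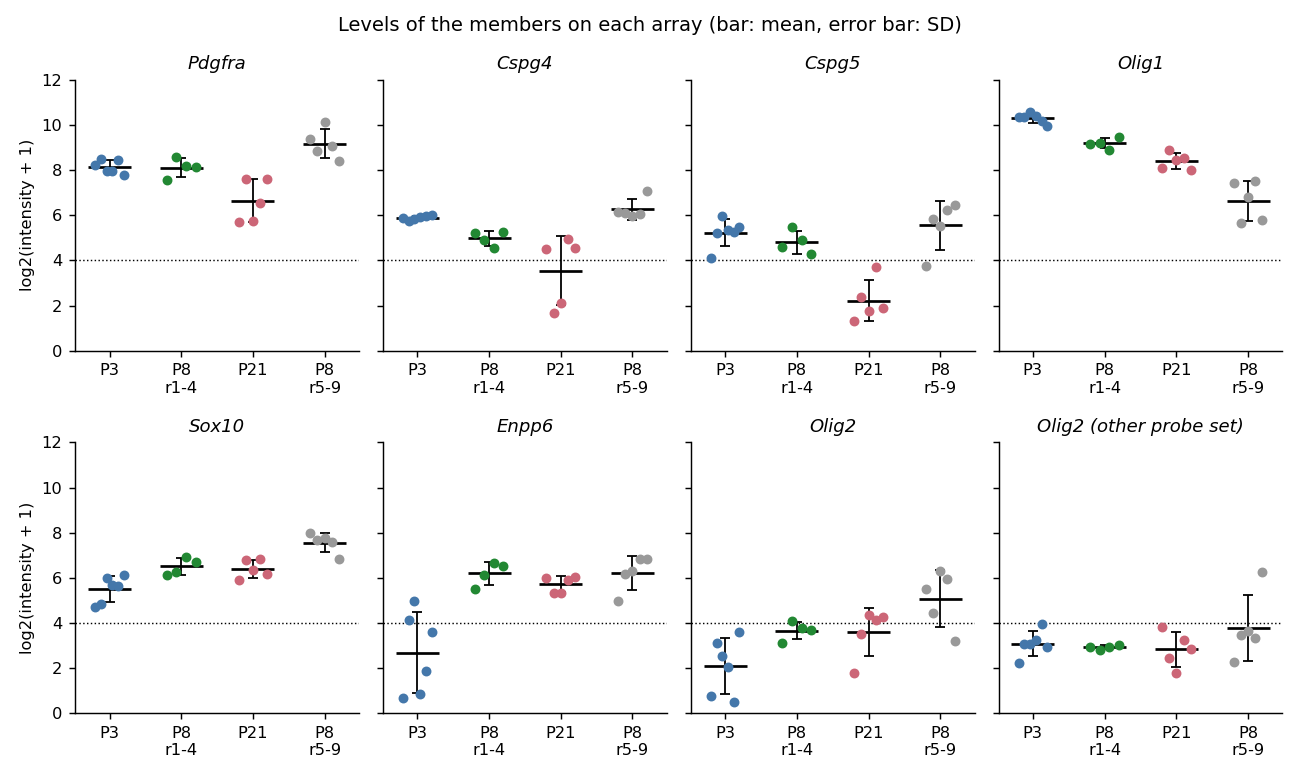
Each point is 1 array, with log2(intensity + 1) on the vertical axis and the age on the horizontal axis, for the 7 measured genes and the second probe set of Olig2; the bar is the mean, the error bar the SD, and the dotted line the filter at log2 4. Olig1 steps down with age, with the P8 and P21 points nearly touching. Cspg5 drops below the line at P21, and Enpp6 is scattered at P3 and tight at P8 and P21. P8 replicates 5 to 9 are grey and lie lowest for Olig1.

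The 6 tested members were called at different steps. Between P3 and P8 3 of them were called, 2 higher (Sox10 and Enpp6) and 1 lower (Olig1), where 17.3% of all 11834 genes were called, 9.32% higher and 8.00% lower. Between P8 and P21 3 were called, all lower (Pdgfra, Cspg5 and Olig1), where 19.8% of all genes were called, 9.71% higher and 10.1% lower. Between P3 and P21 all 6 tested members were called, 2 higher and 4 lower, where 43.1% of all genes were called, 22.6% higher and 20.5% lower. The groups of P3 and P8 did not overlap for Enpp6, which was higher, and for Cspg4 and Olig1, which were lower, where 8.42% of all genes had P8 wholly above P3 and 6.52% wholly below. P21 lay wholly below P8 for Cspg5 and Olig1 and wholly above it for 0 tested members, where this held for 7.69% and 7.96% of all genes. P21 lay wholly below P3 for Pdgfra, Cspg4, Cspg5 and Olig1 and wholly above it for Enpp6, where this held for 14.5% and 16.9% of all genes. A gene dim at 1 age passes the filter only if it is bright at another, as Cspg5 and Enpp6 did, so these counts describe the members and do not set them apart. The median change of the 6 was -0.23, -1.11 and -1.71 in the 3 comparisons, against 0.01, 0.04 and 0.04 over all genes tested. The comparisons share their samples and are not independent of each other.

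**Figure D2:**
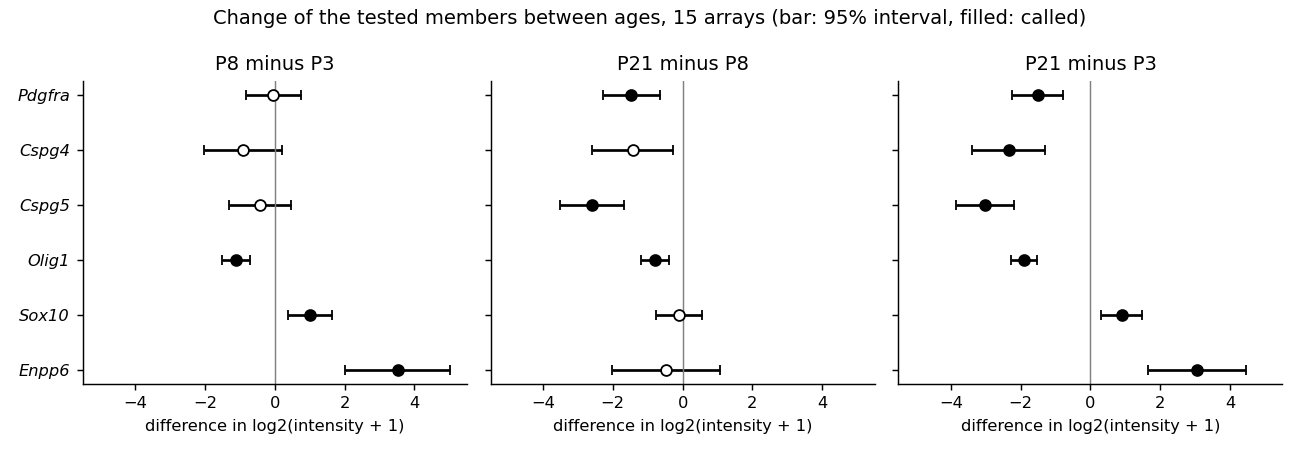
Change of each tested member between ages (horizontal axis, difference in log2(intensity + 1)), with its 95% interval as a bar and a filled point where limma called the change. From P3 to P8 Olig1 lies below 0 and Sox10 and Enpp6 above it, from P8 to P21 the called members all lie below 0, and from P3 to P21 the interval of every tested member excludes 0.

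Whether members changed by different amounts was tested for each of the 15 pairs of the 6 in each comparison, on the difference of the paired levels per array, by two-sided exact permutation tests adjusted over the 45 tests. Of the 45 differences 18 passed, 9 between P3 and P8, 1 between P8 and P21 and 8 between P3 and P21. The smallest possible p-values of these exact permutation tests were 0.00476, 0.00794 and 0.00216. All 8 that passed from P3 to P21 pair a member that rose over the span with 1 that fell. Those members were already called in opposite directions on the same arrays, so these 8 passes are no further evidence. Most of the 18 involve Enpp6 or Cspg5, which passed the filter mainly through the ages where they are bright. Pairs of other genes were not tested, so these counts describe the members and do not set them apart. Pdgfra and Olig1 parted early: from P3 to P8 the change of Pdgfra exceeded that of Olig1 by 1.07 (exact permutation, adjusted p = 0.0153), and over the whole span the difference was 0.39 (adjusted p = 0.418, exact permutation). Sox10 and Olig1, factors of the same lineage, differed in their changes, that of Olig1 minus that of Sox10 being -2.11 from P3 to P8 and -2.80 from P3 to P21 (exact permutation, adjusted p = 0.0153 and 0.0139). The changes of Pdgfra, Cspg4, Cspg5 and Olig1 from P3 to P21 differed among each other by 0.39 to 1.51 in size, and none of these 6 pairs passed (exact permutation, adjusted p from 0.0649 to 0.540), which does not show that they fell alike. Between Pdgfra and Enpp6 the change from P3 to P8 differed by -3.56 (exact permutation, adjusted p = 0.0378), a call lost without any 1 of the 4 P8 animals (adjusted p up to 0.0630). Sox10 rose by 2.52 less than Enpp6 from P3 to P8 (exact permutation, adjusted p = 0.0476), a call lost in 12 of 15 fits that leave out 1 array (adjusted p up to 0.114). The only pair that passed from P8 to P21 was Cspg5 and Sox10, at -2.49 (exact permutation, adjusted p = 0.0238), and it was lost in 8 of those 15 fits (adjusted p up to 0.0714).

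P8 replicates 5 to 9 carried most members at higher levels than P8 replicates 1 to 4, and Olig1 at a much lower one. Pdgfra was at 9.36, 8.83, 10.13, 9.05 and 8.42 in them, Cspg4 at 6.15, 6.09, 5.95, 6.06 and 7.09, and Sox10 at 7.99, 7.66, 7.75, 7.60 and 6.83. Cspg4 thus lay above every level of the P8 animals 1 to 4, and Pdgfra and Sox10 overlapped with them at replicate 9 alone. Olig1 was at 7.42, 5.67, 6.79, 7.50 and 5.77, below all 15 other arrays, and its mean was 2.56 lower than in replicates 1 to 4. Cspg5, at 3.73, 5.82, 5.53, 6.23 and 6.46, and Enpp6, at 4.99, 6.16, 6.31, 6.82 and 6.85, straddled the levels of replicates 1 to 4. Olig2 was at 5.52, 4.46, 6.29, 5.95 and 3.22 on its brighter probe set and at 2.26, 3.46, 3.63, 3.32 and 6.25 on its dimmer one, so the 2 probe sets were lowest in different animals. The mean differences were 1.05 for Pdgfra, 1.29 for Cspg4, 1.06 for Sox10, 0.75 for Cspg5 and 0.02 for Enpp6, where the median over all tested genes was 0.01 and 50.5% of them were above 0. The set was not split by a labelled condition, and no test is given. Over all 20 arrays Olig1 fell by 2.53 from P3 to P8 (adjusted p = 0.00386), and its change from P8 to P21 turned to 0.63 (adjusted p = 0.383). Over the same arrays Sox10 rose by 1.59 from P3 to P8 (adjusted p = 0.00339), Enpp6 rose by 3.53 (adjusted p = 0.000626), and the changes of Pdgfra and Cspg4 were 0.54 (adjusted p = 0.256) and -0.20 (adjusted p = 0.761). From P8 to P21 Pdgfra then fell by 2.05 (adjusted p = 0.00143) and Cspg5 fell by 3.01 (adjusted p = 0.000184).

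The other genes of the precursor stage fell more often than they rose. Of 13 tested genes of a list of 20 other precursor markers, 8 were called lower and 2 higher from P3 to P21, with a median of -1.01, where 20.5% of all genes were called lower and 22.6% higher. From P8 to P21 5 were lower and 0 higher, where 10.1% of all genes were called lower and 9.71% higher. From P3 to P8 1 was lower and 1 higher, where 8.00% of all genes were called lower and 9.32% higher. Sox6, a SOX factor of precursors, fell by 2.92 ± 0.67 SE from P3 to P21 (adjusted p = 0.00266), and Vcan, which encodes the proteoglycan versican, fell by 2.03 ± 0.43 SE (adjusted p = 0.00146). The mean of Sox6 at P21 was 2.94, under log2 4, so the size of its fall is uncertain. The 2 that rose were C1ql1, a secreted C1q-like protein (1.97 ± 0.25 SE, adjusted p = 1.99e-05), and Cacng4, a subunit that accompanies AMPA receptors (0.66 ± 0.20 SE, adjusted p = 0.0155). Neurons make several of these proteins too. With the GAPDH covariate the calls of Sox6 (-1.60, adjusted p = 0.218) and Cacng4 (0.36, adjusted p = 0.396) were lost, and over all 20 arrays those of Vcan (-2.03, adjusted p = 0.116) and Cacng4 (0.66, adjusted p = 0.466).

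In the premyelinating stage, to which Enpp6 belongs, 7 of 18 tested genes rose, 0 fell and 11 were not called from P3 to P8, with a median of 0.52, where 9.32% of all genes were called higher. From P8 to P21 0 rose, 5 fell and 13 were not called, with a median of -0.25, where 10.1% of all genes were called lower. Bmp4, a secreted growth factor that newly committed cells express, was at 4.26 ± 0.46 (SD, n = 6) at P3, 6.03 ± 0.54 (SD, n = 4) at P8 and 4.60 ± 0.71 (SD, n = 5) at P21. It rose by 1.76 ± 0.34 SE (adjusted p = 0.00352) and then fell by 1.42 ± 0.36 SE (adjusted p = 0.0114), and the fall was not called with the GAPDH covariate (-1.30, adjusted p = 0.0587). Myrf, the factor that switches on myelin genes, rose by 1.49 ± 0.25 SE from P3 to P8 (adjusted p = 0.00145), and Bcas1, a marker of early myelinating cells, by 1.17 ± 0.16 SE (adjusted p = 0.00041). Bmp4, Myrf and Bcas1 were named after their values were seen. From P3 to P21, when 22.6% of all genes were called higher and 20.5% lower, 6 of the 18 rose and 4 fell. Among them Ugt8, an enzyme of myelin lipid synthesis, rose by 1.90 ± 0.35 SE (adjusted p = 0.000496), and Nfasc, an adhesion molecule of axon and glia, rose by 1.41 ± 0.17 SE (adjusted p = 1.3e-05). The mean of Ugt8 at P3 was 3.44, under log2 4, so the size of its rise is uncertain. The kinase gene Fyn fell by 1.66 ± 0.15 SE (adjusted p = 5.84e-07) and Tcf7l2, a factor of the Wnt pathway, by 1.56 ± 0.29 SE (adjusted p = 0.000501). The changes of Fyn and Tcf7l2 from P8 to P21, at -1.81 ± 0.16 SE (adjusted p = 5.03e-06) and -2.11 ± 0.32 SE (adjusted p = 0.000388), were also chosen after their values were seen. Taking the mean of all probe sets of a gene ended the calls of Nfasc from P3 to P21 (0.22, adjusted p = 0.371) of Tcf7l2 from P3 to P21 (-0.57, adjusted p = 0.0906) and of Tcf7l2 from P8 to P21 (-0.74, adjusted p = 0.0905). All 20 arrays ended the call of Fyn from P8 to P21 (-0.54, adjusted p = 0.382).

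Transcription factors that act in the lineage moved both ways. Of 25 tested factors outside the members, 6 rose and 10 fell from P3 to P21, with a median of -0.30. Over all genes 22.6% were called higher and 20.5% lower, so the share of factors that rose is near that of all genes. Several of the factors also act in neurons or in other glia. Some, such as Sox6, Myrf, Nkx2-2 and Tcf7l2, also stand in the precursor or premyelinating lists. Nkx6-2, a homeobox gene of oligodendrocytes, rose by 2.29 ± 0.39 SE (adjusted p = 0.000274). It was at or under log2 4 on every P3 array, so the size of its rise is uncertain. Prox1 rose by 1.98 ± 0.52 SE (adjusted p = 0.00651), though over all 20 arrays the change of 1.98 was not called (adjusted p = 0.0957). Nkx6-1, a homeobox gene of ventral progenitors, fell by 2.82 ± 0.66 SE (adjusted p = 0.00292), and its change with the GAPDH covariate, -2.15, was not called (adjusted p = 0.125). Nkx2-2, chosen after its values were seen, fell by 1.79 ± 0.41 SE from P8 to P21 (adjusted p = 0.00683). Its mean at P21 was 3.55, under log2 4, so the size of its fall is uncertain.

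The pathway of Pdgfra was followed in its ligands and signalling proteins, without the receptor itself. Of 17 genes measured 13 were tested, and Pdgfa was the only ligand gene among them. Pdgfc, Pdgfrb and Pik3r1 were at or under log2 4 on all 15 arrays, and Pdgfd on every P8 and P21 array. Of 13 tested genes 0 were called from P3 to P8, 1 (Fyn) was lower from P8 to P21, and 1 was higher and 4 lower from P3 to P21, with a median of -0.40 over the span. Over all genes tested 17.3%, 19.8% and 43.1% were called in these comparisons, so the 5 of 13 over the span are near the share of all genes. The ligand gene Pdgfa was at 6.46 ± 0.17 (SD, n = 6) at P3, 6.65 ± 0.35 (SD, n = 4) at P8 and 6.21 ± 0.82 (SD, n = 5) at P21, and its change over the span was -0.25 ± 0.29 SE (adjusted p = 0.532). Without P21 replicate 1 that change was 0.071. Pik3ca, a catalytic subunit of phosphoinositide 3-kinase, rose by 0.51 ± 0.16 SE (adjusted p = 0.0154). Rasa1, a brake on Ras, fell by 1.09 ± 0.39 SE (adjusted p = 0.0358), a call lost in 7 of 15 fits that leave out 1 array (changes from -1.44 to -0.69 over the 15) and over all 20 arrays (-1.09, adjusted p = 0.201). The call of Pik3ca was likewise lost over all 20 arrays at the same change (0.51, adjusted p = 0.410). With the GAPDH covariate both calls were lost, Pik3ca at a change of 0.56 (adjusted p = 0.101) and Rasa1 at -0.32 (adjusted p = 0.697).

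Markers of myelinating cells rose while most members fell. From P3 to P21, 22.6% of all genes were called higher and 20.5% lower. Of 26 tested myelin genes 25 rose and 0 fell from P3 to P21, with a median of 2.45, led by Ermn (6.58 ± 0.57 SE, adjusted p = 5.17e-07) and Opalin (5.30 ± 0.53 SE, adjusted p = 1.8e-06). Both were at or under log2 4 on every P3 array, so the sizes of their rises are uncertain. Their summed intensity was 1907 to 3660 at P3, 7633 to 12067 at P8 and 11752 to 17443 at P21. Genes of the cell cycle fell: 21 of 24 tested were called lower and 0 higher from P3 to P21, with a median of -1.13, led by Top2a (-3.01 ± 0.49 SE, adjusted p = 0.00016) and Ccna2 (-2.71 ± 0.58 SE, adjusted p = 0.00154). Their summed intensity was 1916 to 2573 at P3, 1408 to 1656 at P8 and 1061 to 1280 at P21. The sums in P8 replicates 5 to 9 were 2165 to 2925 for the cell cycle genes and 3274 to 8054 for the myelin genes. Those of the cell cycle genes thus lay within or above the P3 range. Those of the myelin genes reached from within the P3 range to within that of P8. Ccna2 was at or under log2 4 on every P21 array, and the mean of Top2a at P21 was 3.38, so the sizes of both falls are uncertain. The call of Ccna2 was lost with the GAPDH covariate (-2.03, adjusted p = 0.0961). The part of either group of cells in the members' changes was not tested.

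**Figure D3:**
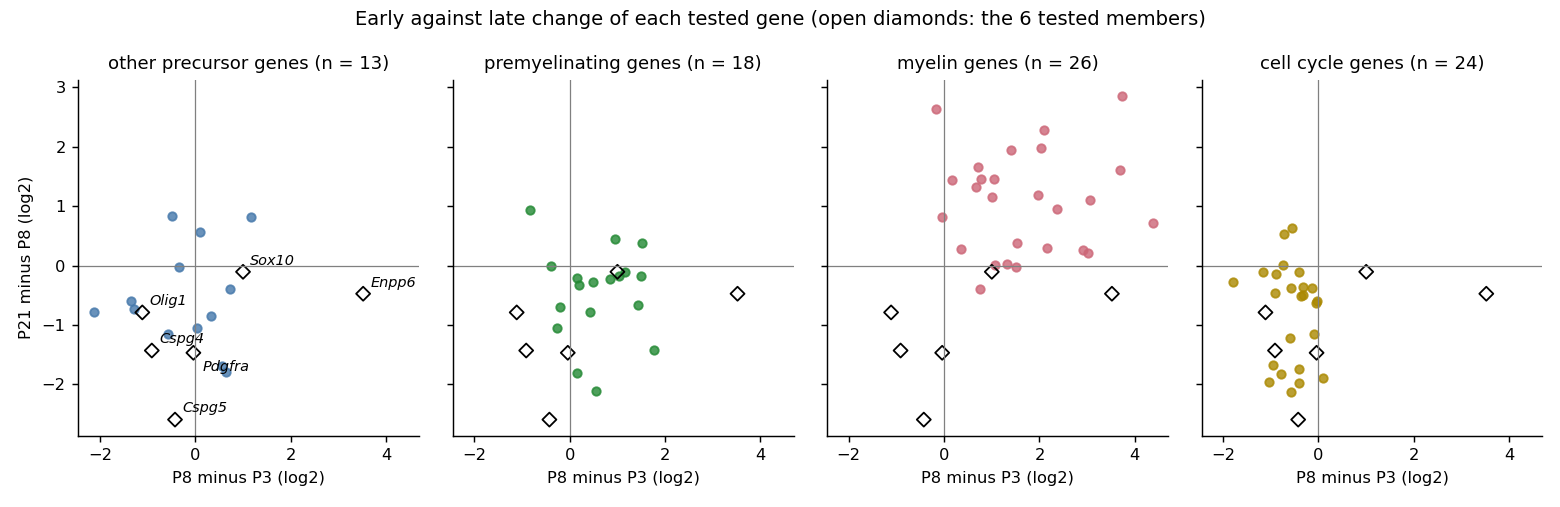
Change from P3 to P8 (horizontal axis, log2) against change from P8 to P21 (vertical axis, log2) for each tested gene of 4 lists, with the 6 tested members as open diamonds in every panel; both axes use the P8 arrays, so the position of a point is a description. Sox10 and Enpp6 lie to the right with many premyelinating genes, the other members lie low, and the myelin genes fill the upper right.

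Cells other than the lineage also carry some members: pericytes express Cspg4, meningeal fibroblasts Pdgfra and Schwann cells Sox10. Of 8 tested pericyte genes 2 rose and 1 fell from P3 to P21, with summed intensities of all 10 measured of 351 to 513 at P3, 241 to 413 at P8 and 375 to 475 at P21, and 2 of the 10, Pdgfrb and Tagln, were at or under log2 4 on all 15 arrays. Among genes not called over the span, the means at P3, P8 and P21 were 7.69, 6.23 and 7.42 for Abcc9 and 6.15, 6.28 and 6.12 for Notch3. They were 5.30, 5.76 and 5.89 for Rgs5 and 5.12, 5.23 and 5.04 for Anpep. Those called higher at P21 than at P3 were Vtn, at 2.21, 2.65 and 4.44, and Des, at 4.18, 4.76 and 4.76. Vtn was at or under log2 4 on every P3 array. Acta2 was the one called lower, at 5.04, 4.38 and 4.26. Of 8 tested fibroblast genes 2 rose from P3 to P8, 0 moved from P8 to P21 and 1 rose from P3 to P21. The summed intensities of all 9 measured fibroblast genes were 235 to 337, 342 to 600 and 238 to 401 at P3, P8 and P21. Of 6 tested Schwann cell genes 0 were called before P21 and 3 fell from P3 to P21, with sums of 472 to 660, 375 to 549 and 447 to 807. In P8 replicates 5 to 9 the sums were 496 to 995 for the pericyte, 634 to 908 for the fibroblast and 251 to 933 for the Schwann cell genes. Of 12 astrocyte genes 3 rose and 2 fell and of 12 microglia genes 1 rose and 1 fell over the span. Of 8 endothelial genes 1 rose and 0 fell, and of 2 tested genes of inhibitory neurons both fell. Over all genes tested, 22.6% were called higher and 20.5% lower from P3 to P21. From P3 to P8 9.32% were higher and 8.00% lower, and from P8 to P21 9.71% higher and 10.1% lower. No list was tested against these shares. The part of the cells of these lists in the members' levels was not tested.

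For each tested member, the 3 genes with the most similar profile over the 15 arrays were taken by Pearson correlation, which here mostly follows the 3 ages that the arrays share. They were Mfap2 (r = 0.93), Gmip (0.93) and Eps8 (0.91) for Pdgfra, and Znf16l-ps1 (0.94), Prc1 (0.93) and Gjc1 (0.92) for Cspg4. For Cspg5 they were Gstm1 (0.96), Rimklb (0.96) and Akap7 (0.94), and for Olig1 Eif1ax (0.97), Arf4 (0.97) and Pak3 (0.96). Sox10 was most like Tmem151a (0.94), Dgat1 (0.91) and Pygb (0.91), and Enpp6 most like Itih3 (0.92), Mbp (0.92) and Zmat5 (0.91). Mbp encodes myelin basic protein, and its mean level was 8.10 at P3, 11.02 at P8 and 11.27 at P21. Prc1 encodes a protein of the spindle midzone, with means of 6.88, 6.06 and 4.59. No member was among the 3 nearest genes of another.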

How the data were processed

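Rat genome arrays of 20 animals were analysed. Deposited values are linear intensities, 1 for each probe set of an array. GCRMA is named, without version or role, in the processing notes of the submitters. The software behind the linear values was not given in the sources used here. The mean intensity of each array, without the lowest and highest 2% of probe sets, was 100. No further normalization was added, and the values were taken as log2(intensity + 1).

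Of 31099 probe sets, 20826 name 1 gene, 436 several and 9837 none here, by the platform annotation. Symbols were updated through a RefSeq table (GRCr8). Of several probe sets for 1 gene, that with the highest mean was used. All 3 ages were fitted together with limma 3.58.1 in R 4.3.3 (lmFit, eBayes, 15 arrays), and every adjusted p in the text is from limma unless an exact permutation test is named. The labels call the samples biological replicates, 1 animal each, and name no litter or date. The number of arrays limits the precision.

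The members and the 14 other gene lists (206 of 230 entries matched to a measured gene) were chosen with earlier results of these data known, so list counts are descriptions. Named are all members, the 3 genes most like each, and up to 2 called genes with the largest rise and fall from P3 to P21 of a described list. Alternatives were other filters, pseudocounts, scalings, variance models, treatments of several probe sets, array sets, a replicate block, a covariate for 3' minus 5' GAPDH, and each array left out.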

Additional observations from a re-analysis of the deposited data

Results flagged for a closer look

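In P8 replicates 5 to 9 the Cspg4 level of replicate 9, 7.09, stood apart from the other 4, which were 5.95 to 6.15, by a Dixon test on the gap to the nearest value as a share of the range (0.825, n = 5). Of 32 groups of 4 to 6 arrays tested over the 8 member probe sets, 1 was flagged, and chance flags about 1 in 20. Leaving out P8 replicates 5 to 9, as the comparisons of the text do, removes this array.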

How the results depend on the processing

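Over the 6 tested members, 228 values from alternatives other than leaving out arrays were set against the reported ones: 213 kept direction and side of the threshold, 6 lost a call, 4 gained one and 5 turned sign. The sign of Pdgfra from P3 to P8, never called, was positive over all 20 arrays (0.54), with array medians subtracted (0.044), with the replicate block (0.037), and without P3 replicate 2 (0.032), P3 replicate 5 (0.015) or P8 replicate 1 (0.15), the range without 1 array being -0.20 to 0.15. Sox10 from P8 to P21, also never called, turned to 0.060 with array weights, 0.016 without P21 replicate 1 and 0.034 without P8 replicate 3 (range -0.23 to 0.034). Olig1 from P8 to P21 turned to 0.63 over all 20 arrays, and Pdgfa from P3 to P21 to 0.071 without P21 replicate 1 (range -0.49 to 0.071). The causes were not tested. For the named genes outside the members and the named pairs, 369 of 386 values kept direction and call, 16 lost a call, 1 gained one and 0 turned sign.

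The count of all genes called from P3 to P21, 5099, became 2995 with the GAPDH covariate and 1928 over all 20 arrays. From P8 to P21, 2345 became 1352 with only these 2 ages, which have fewer arrays, and from P3 to P8, 2050 became 3513 over all 20 arrays and 1167 with the replicate block. Without 1 array the counts were 4519 to 5506 from P3 to P21, 1874 to 2516 from P8 to P21 and 1562 to 2085 from P3 to P8; members called were 6 in each fit, 3 to 4 and 2 to 3. The pairs that differed, 18 of 45, became 32 over all 20 arrays and 12 to 22 without 1 array. Equal replicate numbers did not pair samples: deviations of the 13 same-numbered pairs correlated at -0.064 to 0.049, and with the replicate block the members called were 3, 3 and 6, as without it. Without detection flags, levels under about log2 4 have no certain order.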
